A study of Mus musculus with 24 samples.

Results

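RNA levels of 10 genes, Nectin1, Cacna1a, Padi2, Lyz1, Lyz2, Wdfy1, Sel1l3, Tnfsf8, Afdn and Ndrg4, were followed through 24 libraries from mouse bone marrow macrophages and the osteoclasts made from them. The 10 are among 54532 genes of the deposited count table and were found there by symbol. They had been put forward because their levels differed between the labelled genotypes in these same libraries, so every genotype difference below is a description with no test. The responses to RANKL and the changes from day 3 to day 5, taken within a genotype, were tested.

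Marrow cells were flushed from long bones, freed of red cells, expanded on petri dishes and seeded at 15000 cells per well. Control cells were Rosa26-Runx1tg/+, which the labels also call wild type, although they carry the Runx1 transgene at Rosa26. The other cells were LysM-Cre;Rosa26-Runx1tg/+, labelled as Runx1 gain of function, and carry the same transgene with a Cre expressed from the lysozyme 2 gene in myeloid cells. Each genotype was sampled at day 3 and day 5, either labelled M-CSF or given M-CSF at 30 ng/mL with RANKL at 50 ng/mL, with 3 libraries in each of 8 groups. The age and strain of the mice, any pooling of animals and the M-CSF dose of wells without RANKL are not stated in the labels. Titles carry a number from 1 to 3, here taken to name a set of 4 libraries, and the labels leave unsaid whether it stands for an animal, a culture or a plating. The p-values therefore measure the spread between these samples, which may be technical. All 24 libraries share an estimate of the spread for each gene. The errors of control comparisons thus also take in the spread among LysM-Cre libraries.

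RANKL is the cytokine that, together with M-CSF, drives macrophages to fuse into osteoclasts, the cells that resorb bone. Runx1 is a DNA-binding transcription factor of blood cells that acts with its partner Cbfb at short DNA motifs. Lysozyme 2 is the abundant antibacterial enzyme of macrophages, and its locus is widely used to drive Cre in the myeloid lineage.

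The labels were checked first. Runx1 at day 5 in M-CSF alone stood at 115, 109 and 92.5 CPM in control libraries 1, 2 and 3 and at 107, 109.5 and 102 CPM in LysM-Cre libraries 1, 2 and 3. With RANKL at day 3 it stood at 52.4, 50.6 and 51.6 CPM in control and 53.6, 67.4 and 52.7 CPM in LysM-Cre libraries. All LysM-Cre libraries lay above the controls there, numbers 1 and 3 by little. The ranges overlapped at the other 3 combinations of day and medium. At day 5 with RANKL that overlap came from LysM-Cre number 3 alone. Runx1 had 1534, 1418 and 1488 counts there in control libraries of 21579971, 21357472 and 22323472 counts. It had 1882, 1773 and 2220 counts in LysM-Cre libraries of 21857323, 18975750 and 36523995 counts. Relative to library size, LysM-Cre numbers 1 and 2 were above every control and number 3 was below. Whether reads from the transgene fall into the Runx1 row is not stated. "LysM-Cre" therefore means the libraries labelled so. The 4 libraries of LysM-Cre number 3 stood apart: they held 2 to 12 counts of the X-linked gene Xist each and 2576 counts of 4 Y-linked genes in total. The other 5 sets held 14963 to 28379 Xist counts per library and 0 to 2 Y-linked counts in total per set. The sex of the mice is not labelled, and in these libraries a difference tied to sex cannot be told apart from any other difference of that set. Values are given below with and without number 3. Summed osteoclast markers (10 genes, none at 0 throughout) lay at 110.5 to 175 CPM in M-CSF alone and at 36220 to 59916 CPM with RANKL, although all libraries carry the cell type label osteoclast. Libraries held 18975750 to 36523995 counts.

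In outline, Nectin1 was higher and Cacna1a lower in all 12 LysM-Cre libraries than in any control library of the same day and medium. Padi2, Lyz1 and Wdfy1 were higher and Sel1l3 was lower in LysM-Cre numbers 1 and 2, with a log2 difference of up to 3.07 (Lyz1) when number 3 is left out, while number 3 lay near the controls. RANKL raised Nectin1, Afdn, Padi2, Wdfy1 and Ndrg4 and lowered Cacna1a, Lyz2 and Sel1l3 at both days in both genotypes. Levels are given as CPM, counts scaled to a library of 1000000 with TMM factors, always in the order of numbers 1, 2 and 3. Log2 differences of LysM-Cre from control are given in the order of M-CSF then RANKL at day 3, followed by M-CSF then RANKL at day 5. In RNA from whole wells, a change in the share of cells that express a gene and a change in RNA per cell cannot be told apart.

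**Figure D1:**
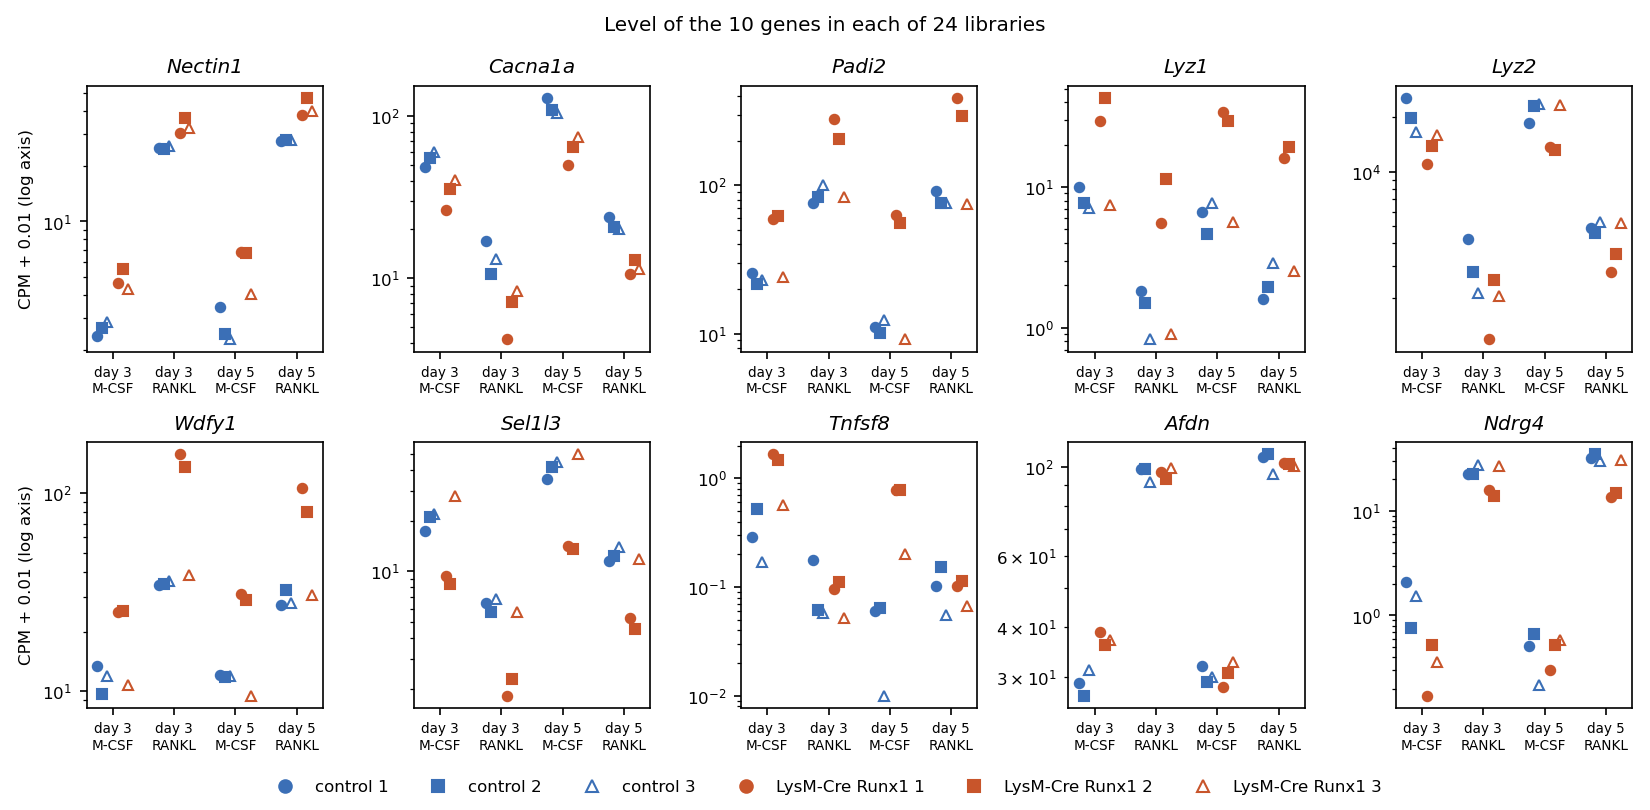
Each panel plots 1 gene, with CPM plus 0.01 on a log axis against the combination of day and medium. Blue points are control and orange points LysM-Cre libraries, circles, squares and open triangles are numbers 1, 2 and 3, and no summary is drawn. The open orange triangles of Padi2, Lyz1, Wdfy1 and Sel1l3 lie near the blue points, while those of Nectin1 lie above and those of Cacna1a below the blue points.

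Nectin1 (chromosome 9, 43743984 to 43807461, plus strand) encodes an immunoglobulin-like adhesion molecule of cell junctions. Nectin1 at day 3 in M-CSF alone stood at 2.38, 2.61 and 2.82 CPM in control and at 4.63, 5.49 and 4.28 CPM in LysM-Cre libraries. With RANKL, Nectin1 stood at 25.2, 24.8 and 25.9 CPM in control and at 30.4, 36.6 and 32.1 CPM in LysM-Cre libraries. The lowest LysM-Cre library was above the highest control library in both media. Nectin1 at day 5 in M-CSF alone stood at 3.39, 2.44 and 2.27 CPM in control and at 6.82, 6.69 and 4.02 CPM in LysM-Cre libraries. Nectin1 with RANKL at day 5 stood at 27.3, 27.8 and 27.9 CPM in control and at 38.2, 46.97 and 39.7 CPM in LysM-Cre libraries. The groups were again apart, and LysM-Cre number 3 was the lowest of its group in M-CSF alone but not with RANKL. The log2 differences of LysM-Cre from control were 0.88, 0.38, 1.11 and 0.59, and 0.95, 0.40, 1.32 and 0.64 without number 3. RANKL raised Nectin1 9.68-fold in control cells at day 3 (log2 3.28, SE 0.18, adjusted p = 2.71e-12). The log2 changes were 2.78 (SE 0.17, adjusted p = 1.19e-11) in LysM-Cre cells at day 3, 3.35 (SE 0.18, adjusted p = 3.49e-12) in control cells at day 5 and 2.83 (SE 0.17, adjusted p = 1.65e-11) in LysM-Cre cells at day 5. Within single sets the log2 rise at day 3 ran from 3.15 to 3.35 in control and from 2.69 to 2.88 in LysM-Cre cells.

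Afdn (chromosome 17, 13760539 to 13906150, plus strand) encodes afadin, the scaffold that ties nectins to actin. Afdn at day 3 in M-CSF alone stood at 29.00, 26.9 and 31.2 CPM in control and at 38.9, 36.02 and 37.03 CPM in LysM-Cre libraries. With RANKL, Afdn stood at 98.9, 99.05 and 91.8 CPM in control and at 97.2, 93.5 and 99.3 CPM in LysM-Cre libraries. The genotypes were apart at day 3 in M-CSF alone and overlapped with RANKL. Afdn at day 5 in M-CSF alone stood at 31.9, 29.1 and 29.9 CPM in control and at 28.4, 30.7 and 32.7 CPM in LysM-Cre libraries. Afdn with RANKL at day 5 stood at 106, 108 and 95.97 CPM in control and at 102, 101 and 100.4 CPM in LysM-Cre libraries. At day 5 they overlapped in both media. The log2 difference between genotypes was 0.36 at day 3 in M-CSF alone, and in the other 3 combinations it lay between −0.02 and 0.01. Afdn thus differed between the labelled genotypes at 1 of the 4 points. RANKL raised Afdn by 1.73 (SE 0.08, adjusted p = 1.22e-13) log2 units in control cells at day 3 and by 1.77 (SE 0.08, adjusted p = 1.95e-13) at day 5. The rises in LysM-Cre cells were 1.37 (SE 0.07, adjusted p = 2.82e-12) and 1.73 (SE 0.08, adjusted p = 2.65e-13), and within single sets all 12 changes lay between 1.32 and 1.88.

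Of the 23 genes listed for nectins, afadin and adherens junctions, 22 were tested. At day 3, 10 rose and 4 fell with RANKL in either genotype, where 59.1% (control) and 59.2% (LysM-Cre) of all tested genes were called. The median log2 change of the list was 0.49 in control cells against −0.03 over all tested genes. At day 5, 6 rose and 1 fell in control cells, where 49.4% of all tested genes were called, and 7 rose and 1 fell in LysM-Cre cells, where 52.4% were called, so the list's share lay below that of all genes. Nectin4, another nectin, went against Nectin1 and Afdn in control cells at day 3, from 19.5 ± 2.43 to 2.24 ± 0.806 CPM (SD, n = 3), a log2 change of −3.11 (SE 0.36, adjusted p = 2.45e-07). The nectin family thus did not move as 1 block.

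Cacna1a (chromosome 8, 84388440 to 84640246, plus strand) encodes the pore subunit of P/Q-type voltage-gated calcium channels, best known from neurons. Cacna1a at day 3 in M-CSF alone stood at 48.5, 55.1 and 59.9 CPM in control and at 26.3, 35.3 and 40.1 CPM in LysM-Cre libraries. With RANKL, Cacna1a stood at 16.8, 10.5 and 13.1 CPM in control and at 4.18, 7.14 and 8.38 CPM in LysM-Cre libraries. Every LysM-Cre library was below every control library in both media. Cacna1a at day 5 in M-CSF alone stood at 129, 109 and 105 CPM in control and at 49.5, 64.1 and 74.3 CPM in LysM-Cre libraries. Cacna1a with RANKL at day 5 stood at 23.7, 20.7 and 20.01 CPM in control and at 10.5, 12.9 and 11.5 CPM in LysM-Cre libraries. The same held at day 5, with number 3 the highest of its group in M-CSF alone. The log2 differences between genotypes were −0.69, −1.04, −0.87 and −0.88, and −0.82, −1.27, −1.01 and −0.86 without number 3. RANKL lowered Cacna1a 4.03-fold in control cells at day 3 (log2 −2.01, SE 0.21, adjusted p = 6.54e-08), and the log2 change at day 5 was −2.41 (SE 0.21, adjusted p = 6.66e-09). Cacna1a fell in LysM-Cre cells too, with changes of −2.37 (SE 0.22, adjusted p = 1.06e-08) at day 3 and −2.43 (SE 0.21, adjusted p = 7.69e-09) at day 5.

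Cacna1a also rose with time in each of the 4 groups. From day 3 to day 5 it rose by 1.07 (SE 0.20, adjusted p = 0.000873) in control and 0.89 (SE 0.20, adjusted p = 0.0057) in LysM-Cre cells in M-CSF alone. With RANKL the rises were 0.67 (SE 0.21, adjusted p = 0.0237) in control and 0.82 (SE 0.22, adjusted p = 0.00736) in LysM-Cre cells. The control call with RANKL was lost without day 3 library 2 (0.50, adjusted p = 0.128), day 3 library 3 (0.64, adjusted p = 0.0562) or day 5 library 1 (0.59, adjusted p = 0.0877), and the LysM-Cre call without day 3 library 1 (0.55, adjusted p = 0.0636). An antisense gene, Gm16183, overlaps Cacna1a over 5983 bases and had 23 to 50 counts in control and 6 to 16 in LysM-Cre libraries at day 5 in M-CSF alone. The counts of Cacna1a there were 2011 to 2585 and 1023 to 1572. The strand setting of the counting is not stated, so reads of the pair cannot be told apart.

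Among 26 listed subunits of voltage-gated calcium channels 11 were tested, and RANKL raised 4 and lowered 2 of them in control cells at day 3. The counts were 6 and 2 in LysM-Cre cells at day 3, 6 and 2 in control cells at day 5, and 5 and 2 in LysM-Cre cells at day 5. Over all tested genes the shares called at these points were 59.1%, 59.2%, 49.4% and 52.4%, and nothing particular to the list is read from its counts. The L-type pore subunit gene Cacna1d fell with Cacna1a, from 21.4 ± 1.84 to 4.53 ± 0.599 CPM at day 3 in control cells (SD, n = 3), a log2 change of −2.24 (SE 0.22, adjusted p = 2.34e-08). The N-type pore subunit gene Cacna1b rose from 0.918 ± 0.236 to 8.41 ± 1.41 CPM (3.18, SE 0.36, adjusted p = 1.67e-07). The accessory subunit gene Cacnb2 rose from 0.14 ± 0.242 to 7.41 ± 2.76 CPM (5.73, SE 0.69, adjusted p = 4.39e-07). Its level in M-CSF alone was a few reads, too low to pass the filter on low counts, so its rise is not independent of the filter. Pore subunit genes thus moved in both directions.

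Lyz2 (chromosome 10, 117277331 to 117282321, minus strand) and Lyz1 (chromosome 10, 117287797 to 117292868, minus strand) encode closely related lysozymes, Lyz2 that of macrophages and Lyz1 best known from Paneth cells of the gut, and lie 5475 bases apart. Their sequences just upstream of the annotated exons are shown because the genes are neighbours and closely alike, yet differed between the genotypes in opposite directions. Both are 90 bases of the minus strand, 5′ to 3′, from RefSeq on GRCm38.p6, Lyz2 from chr10:117282323-117282412 and Lyz1 from chr10:117292919-117293008. Capitals mark the core that Runx factors recognise (TGTGGT, here read on the other strand as ACCACA) and the aligned bases of Lyz1.
Lyz2: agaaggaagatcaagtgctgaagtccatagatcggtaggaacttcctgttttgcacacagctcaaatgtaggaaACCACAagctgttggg
Lyz1: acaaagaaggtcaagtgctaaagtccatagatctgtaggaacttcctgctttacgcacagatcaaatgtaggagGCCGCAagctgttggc
The stretches were identical at 77 of 90 positions (85.6%). Of the 13 differences, 2 lay in the core, A75G and A78G, with the Lyz2 base first and positions counted from 1 at the 5′ end. TGTGGT or TGCGGT, on either strand, occurred in 22.4% of 32851 RefSeq promoter windows of 250 bases before to 50 after a start. The table held windows for 6 of the 10 genes, 9 windows in all, and 2 windows had a match, those of Lyz2 and of 1 start of Ndrg4. Nectin1, Cacna1a, Wdfy1 and Sel1l3 had no window in it. A match describes letters and nothing is drawn from it about Runx1.

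Lyz2 at day 3 in M-CSF alone stood at 25577, 19924 and 16484 CPM in control and at 11045, 13802 and 15941 CPM in LysM-Cre libraries. With RANKL, Lyz2 stood at 4204, 2773 and 2124 CPM in control and at 1170.0, 2518 and 2042 CPM in LysM-Cre libraries. At day 3 the LysM-Cre libraries lay below the controls in M-CSF alone, whereas with RANKL number 2 lay within the control range. Lyz2 at day 5 in M-CSF alone stood at 18671, 23209 and 23695 CPM in control and at 13685, 13148 and 23410.1 CPM in LysM-Cre libraries. Lyz2 with RANKL at day 5 stood at 4840.4, 4546 and 5240.4 CPM in control and at 2781, 3491 and 5196 CPM in LysM-Cre libraries. At day 5 numbers 1 and 2 were below all controls, and number 3 was within the control range. LysM-Cre differed from control Lyz2 by −0.60, −0.67, −0.38 and −0.35 log2 units, and −0.74, −0.73, −0.71 and −0.62 without number 3. Per kilobase, Lyz2 stood far above the other 9 genes, at 15700.2 ± 3489 CPM per kb in the day 3 control libraries without RANKL against 6.52 ± 1.21 for Lyz1 (SD, n = 3). The Cre of these mice is expressed from the Lyz2 locus, so Lyz2 is not independent of the genotype label. RANKL lowered Lyz2 6.81-fold in control cells at day 3 (log2 −2.77, SE 0.31, adjusted p = 1.95e-07), and the log2 change at day 5 was −2.16 (SE 0.30, adjusted p = 5.4e-06). Lyz2 fell in LysM-Cre cells with changes of −2.83 (SE 0.31, adjusted p = 1.43e-07) at day 3 and −2.13 (SE 0.30, adjusted p = 6.42e-06) at day 5. With RANKL, Lyz2 rose from day 3 to day 5 in LysM-Cre cells by 1.00 (SE 0.30, adjusted p = 0.0135). That call was lost without all libraries of number 3 (0.77, adjusted p = 0.0757), without day 3 library 1 (0.71, adjusted p = 0.0998) and without day 5 library 3 (0.72, adjusted p = 0.0825).

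Lyz1 at day 3 in M-CSF alone stood at 9.98, 7.64 and 7.09 CPM in control and at 29.3, 42.8 and 7.39 CPM in LysM-Cre libraries. With RANKL, Lyz1 stood at 1.81, 1.497 and 0.815 CPM in control and at 5.51, 11.4 and 0.888 CPM in LysM-Cre libraries. Numbers 1 and 2 of LysM-Cre were above every control, and number 3 was within the control range. Lyz1 at day 5 in M-CSF alone stood at 6.58, 4.605 and 7.63 CPM in control and at 34.1, 29.5 and 5.67 CPM in LysM-Cre libraries. Lyz1 with RANKL at day 5 stood at 1.58, 1.93 and 2.86 CPM in control and at 16.1, 19.3 and 2.51 CPM in LysM-Cre libraries. The same arrangement held at day 5. For Lyz1 the genotypes differed by 1.69, 2.08, 1.88 and 2.55 log2 units, and 2.13, 2.59, 2.34 and 3.07 without number 3. So in LysM-Cre numbers 1 and 2 Lyz1 was higher and Lyz2, apart from number 2 at day 3 with RANKL, lower than in any control. RANKL lowered Lyz1 at day 3, with log2 changes of −2.57 (SE 0.86, adjusted p = 0.0147) in control and −2.18 (SE 0.76, adjusted p = 0.018) in LysM-Cre cells. The control call was lost without RANKL library 3 (−2.30, adjusted p = 0.0606), and the LysM-Cre call without M-CSF library 2 (−1.65, adjusted p = 0.0945), RANKL library 1 (−2.09, adjusted p = 0.0582) or RANKL library 3 (−1.67, adjusted p = 0.0751). At day 5 the changes were −1.56 (SE 0.83, adjusted p = 0.127) in control and −0.89 (SE 0.72, adjusted p = 0.318) in LysM-Cre cells and did not pass. Lyz1 was lower with RANKL within each of the 6 sets at day 5, with log2 changes of −1.99 to −1.21 in control and −1.14 to −0.61 in LysM-Cre sets. With the set as a block the LysM-Cre change at day 5 was −0.96 (adjusted p = 0.00451). Without number 3 it was −0.86 (adjusted p = 0.0384), and the control change was then −1.59 (adjusted p = 0.000421). Of the 50-base windows of its exons, Lyz1 shares 16.1% with Lyz2, and how reads that map to both were counted is not stated, so the Lyz1 counts are uncertain.

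Of 7 listed lysozyme genes, 3 were tested, and in control cells at day 3 all 3 fell. The third, Lyzl4, which encodes a lysozyme-like protein, fell from 5.47 ± 0.862 to 2.04 ± 0.635 CPM (SD, n = 3), a log2 change of −1.42 (SE 0.37, adjusted p = 0.00273). In LysM-Cre cells at day 3, and in both genotypes at day 5, 2 of the 3 fell and 0 rose. Of all tested genes, 29.7% fell in control and 30.1% in LysM-Cre cells at day 3, and 23.1% and 24.9% at day 5.

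Padi2 (chromosome 4, 140906344 to 140952586, plus strand) encodes a peptidylarginine deiminase, which turns arginine in proteins into citrulline. Padi2 at day 3 in M-CSF alone stood at 25.7, 21.4 and 23.1 CPM in control and at 59.01, 62.3 and 24.02 CPM in LysM-Cre libraries. With RANKL, Padi2 stood at 75.6, 83.4 and 101 CPM in control and at 281, 206 and 83.6 CPM in LysM-Cre libraries. LysM-Cre numbers 1 and 2 were above every control library, and number 3 was within their range. Padi2 at day 5 in M-CSF alone stood at 11.1, 10.1 and 12.4 CPM in control and at 62.8, 55.9 and 9.12 CPM in LysM-Cre libraries. Padi2 with RANKL at day 5 stood at 91.4, 76.5 and 76.3 CPM in control and at 387, 293 and 74.7 CPM in LysM-Cre libraries. At day 5 the distance of numbers 1 and 2 from the controls was larger, and number 3 was below all controls. For Padi2 the log2 differences were 1.05, 1.13, 1.92 and 1.63, and 1.37, 1.49, 2.40 and 2.08 without number 3. RANKL raised Padi2 in control cells 3.71-fold at day 3 (log2 1.89, SE 0.57, adjusted p = 0.00762) and by 2.86 (SE 0.60, adjusted p = 0.000523) log2 units at day 5. The rises in LysM-Cre cells were 1.97 (SE 0.56, adjusted p = 0.00519) and 2.56 (SE 0.58, adjusted p = 0.000904). The response was of like size in number 3: within the 3 LysM-Cre sets it ran from 1.72 to 2.25 at day 3 and from 2.39 to 3.02 at day 5. From day 3 to day 5 in M-CSF alone Padi2 was lower in all 3 control sets, with log2 changes of −1.20 to −0.89, and the comparison did not pass.

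Of the 5 peptidylarginine deiminase genes 3 were tested, and in each of the 4 RANKL comparisons Padi2 rose while Padi4 and Padi3 fell. Among all tested genes 59.1% were called in control and 59.2% in LysM-Cre cells at day 3, and 49.4% and 52.4% at day 5. Padi4, whose product citrullinates histones in neutrophils, went from 23.1 ± 7.68 to 5.66 ± 0.96 CPM in control cells at day 3 (SD, n = 3), a log2 change of −2.03 (SE 0.38, adjusted p = 0.000113). Padi3, known from skin and hair follicles, changed by −2.58 (SE 0.73, adjusted p = 0.00458) from a level of 0.685 ± 0.387 CPM. In M-CSF alone it stood near the filter on low counts, and with RANKL lower still. The falls of Padi3 are therefore not independent of the filter. Padi3 and Padi4 lie within 500 kb of Padi2, and their mean absolute log2 difference between genotypes was 0.60 and 0.33 against 1.43 for Padi2.

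Wdfy1 (chromosome 1, 79702262 to 79776143, minus strand) encodes a FYVE and WD-repeat protein of early endosomes that has been tied to Toll-like receptor 3 signalling. Wdfy1 at day 3 in M-CSF alone stood at 13.4, 9.695 and 11.97 CPM in control and at 25.2, 25.4 and 10.7 CPM in LysM-Cre libraries. With RANKL, Wdfy1 stood at 34.4, 34.8 and 35.8 CPM in control and at 157, 135 and 38.6 CPM in LysM-Cre libraries. All LysM-Cre libraries exceeded the controls with RANKL, number 3 by little, and in M-CSF alone number 3 was within their range. Wdfy1 at day 5 in M-CSF alone stood at 12.1, 11.8 and 11.9 CPM in control and at 30.97, 28.7 and 9.499 CPM in LysM-Cre libraries. Wdfy1 with RANKL at day 5 stood at 27.3, 32.3 and 27.9 CPM in control and at 106, 80.5 and 30.5 CPM in LysM-Cre libraries. Numbers 1 and 2 were above all controls again, while number 3 was below them in M-CSF alone and among them with RANKL. The log2 differences between genotypes were 0.81, 1.65, 0.95 and 1.31, and 1.11, 2.06, 1.32 and 1.70 without number 3. RANKL raised Wdfy1 by 1.58 (SE 0.48, adjusted p = 0.00779) log2 units in control and 2.43 (SE 0.48, adjusted p = 0.000198) in LysM-Cre cells at day 3. The rises at day 5 were 1.29 (SE 0.48, adjusted p = 0.0321) in control and 1.65 (SE 0.47, adjusted p = 0.00596) in LysM-Cre cells. The control call at day 5 was lost without M-CSF library 1, 2 or 3 (1.26, 1.25 and 1.25, adjusted p = 0.0739, 0.0795 and 0.0799), without RANKL library 2 (1.21, adjusted p = 0.0718) and without RANKL library 3 (1.32, adjusted p = 0.0507). The size of that change moved little, from 1.21 to 1.34 over all settings run. Within single control sets it ran from 1.16 to 1.44. The opposite-strand gene Mrpl44 overlaps Wdfy1 over 126 bases.

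The 6 listed WDFY proteins and partners of Toll-like receptor 3 were all tested. In control cells at day 3, Wdfy1 rose with Ticam1, the adaptor of that receptor, at 0.82 (SE 0.13, adjusted p = 1.69e-05). The other 4 fell, among them the receptor gene Tlr3 itself at −2.33 (SE 0.19, adjusted p = 1.09e-09), Wdfy3 at −1.32 (SE 0.10, adjusted p = 4.63e-10) and Wdfy4 at −1.39 (SE 0.12, adjusted p = 2.62e-09). The counts were the same in LysM-Cre cells, and at day 5, 1 rose and 4 fell in either genotype. The shares called over all tested genes were 59.1% in control and 59.2% in LysM-Cre cells at day 3, and 49.4% and 52.4% at day 5.

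Tnfsf8 (chromosome 4, 63831308 to 63861347, minus strand) encodes the CD30 ligand, a TNF family cytokine, and was counted in few reads, of which each was worth 0.0286 to 0.0542 CPM. Tnfsf8 at day 3 in M-CSF alone had 6, 11 and 4 counts in control and 41, 37 and 13 in LysM-Cre libraries. With RANKL its counts were 4, 1 and 1 in control and 2, 2 and 1 in LysM-Cre libraries. LysM-Cre libraries were higher in M-CSF alone, and with RANKL the groups overlapped at counts where 1 read matters. At day 5 in M-CSF alone Tnfsf8 had 1, 1 and 0 counts in control and 16, 18 and 4 in LysM-Cre libraries. With RANKL at day 5 its counts were 2, 3 and 1 in control and 2, 2 and 2 in LysM-Cre libraries. The pattern was the same as at day 3, with control libraries at 0 or 1 count in M-CSF alone. The log2 differences between genotypes in M-CSF alone were 1.95 at day 3 and 3.86 at day 5, and 2.29 and 4.27 without number 3. Tnfsf8 passed the filter on low counts mainly through the LysM-Cre libraries in M-CSF alone, so falls from those levels are not independent of the filter. With RANKL it fell in LysM-Cre cells, with log2 changes of −3.93 (SE 0.68, adjusted p = 4.25e-05) at day 3 and −2.76 (SE 0.69, adjusted p = 0.0021) at day 5. In control cells the change at day 3 was −1.71 (SE 0.73, adjusted p = 0.0496), a call lost without M-CSF library 1 or 2 (−1.78 and −1.19, adjusted p = 0.0672 and 0.224), without RANKL library 2 or 3 (−1.47 and −1.42, adjusted p = 0.136 and 0.148), with DESeq2 (adjusted p = 0.0841), with RLE factors (adjusted p = 0.0568), with no filter (−1.69, adjusted p = 0.122) and with the compared groups alone (adjusted p = 0.0983). At day 5 it was 1.29 (SE 1.04, adjusted p = 0.32), which did not pass.

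Among 18 TNF family ligands 13 were tested, and 4 rose and 7 fell in control cells at day 3. The counts were 3 and 7 in LysM-Cre cells at day 3, 4 and 4 in control cells at day 5, and 2 and 5 in LysM-Cre cells at day 5. Of all tested genes, 29.5% rose and 29.7% fell in control cells at day 3, and 29.1% and 30.1% in LysM-Cre cells. At day 5 the shares were 26.4% and 23.1% in control and 27.5% and 24.9% in LysM-Cre cells. Tnfsf14, a T-cell costimulatory ligand, went from 4.72 ± 0.357 to 0.546 ± 0.0295 CPM at day 3 in control cells (SD, n = 3; −3.10, SE 0.32, adjusted p = 5.02e-08). Tnfsf12 changed by −1.60 (SE 0.21, adjusted p = 1.00e-06) and Tnfsf13b, the B-cell survival factor BAFF, by −2.70 (SE 0.52, adjusted p = 0.00015). Lta, lymphotoxin alpha, had 0 counts in control cells in M-CSF alone and 0.753 ± 0.497 CPM with RANKL (adjusted p = 0.000635). It passed the filter on low counts through other libraries than these M-CSF ones, so its rise is not independent of the filter. Tnfsf8 itself is among the ligands counted as lower at day 3 in both genotypes and at day 5 in LysM-Cre cells.

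Sel1l3 (chromosome 5, 53107083 to 53213927, minus strand) encodes a relative of SEL1L, the adaptor of protein disposal at the endoplasmic reticulum, and its own role is less known. Sel1l3 at day 3 in M-CSF alone stood at 17.4, 21.02 and 21.9 CPM in control and at 9.37, 8.44 and 28.1 CPM in LysM-Cre libraries. With RANKL, Sel1l3 stood at 6.45, 5.73 and 6.804 CPM in control and at 1.81, 2.26 and 5.71 CPM in LysM-Cre libraries. Numbers 1 and 2 of LysM-Cre were below every control, and number 3 was above all controls in M-CSF alone and just below them with RANKL. Sel1l3 at day 5 in M-CSF alone stood at 35.5, 41.8 and 44.5 CPM in control and at 14.03, 13.5 and 49.5 CPM in LysM-Cre libraries. Sel1l3 with RANKL at day 5 stood at 11.5, 12.3 and 13.9 CPM in control and at 5.27, 4.52 and 11.8 CPM in LysM-Cre libraries. At day 5 number 3 was again the highest of all 6 libraries in M-CSF alone, and with RANKL it was among the controls. Sel1l3 differed between genotypes by −0.40, −0.95, −0.66 and −0.77 log2 units, and −1.18, −1.65, −1.56 and −1.34 without number 3, so number 3 moved these values by over 1.5 times at each point. RANKL lowered Sel1l3 in control cells, with log2 changes of −1.67 (SE 0.51, adjusted p = 0.0085) at day 3 and −1.69 (SE 0.50, adjusted p = 0.00766) at day 5. In LysM-Cre cells they were −2.22 (SE 0.54, adjusted p = 0.00142) and −1.80 (SE 0.51, adjusted p = 0.00523), and the latter call was lost without M-CSF library 3 (−0.91, adjusted p = 0.105). Sel1l, the other tested member of its family, fell with RANKL in all 4 comparisons, with changes of −0.24 (SE 0.08, adjusted p = 0.0196) at day 3 and −0.41 (SE 0.08, adjusted p = 0.000367) at day 5 in control cells. Falls were called for 29.7% of all tested genes in control and 30.1% in LysM-Cre cells at day 3, and for 23.1% and 24.9% at day 5.

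Ndrg4 (chromosome 8, 95676980 to 95715119, plus strand) belongs to the NDRG family of hydrolase-fold proteins and is best known from brain and heart. Ndrg4 at day 3 in M-CSF alone stood at 2.098, 0.746 and 1.53 CPM in control and at 0.161, 0.517 and 0.346 CPM in LysM-Cre libraries. With RANKL, Ndrg4 stood at 22.3, 22.3 and 27.3 CPM in control and at 15.7, 13.9 and 26.7 CPM in LysM-Cre libraries. LysM-Cre libraries were below the controls in M-CSF alone, and with RANKL numbers 1 and 2 were below them while number 3 was among them. Ndrg4 at day 5 in M-CSF alone stood at 0.499, 0.6501 and 0.206 CPM in control and at 0.2903, 0.512 and 0.567 CPM in LysM-Cre libraries. Ndrg4 with RANKL at day 5 stood at 32.2, 34.7 and 29.99 CPM in control and at 13.4, 14.9 and 30.9 CPM in LysM-Cre libraries. At day 5 the genotypes overlapped in M-CSF alone, and with RANKL numbers 1 and 2 again lay below and number 3 among the controls. For Ndrg4 the genotypes differed by −2.08, −0.35, 0.03 and −0.70 log2 units, and −2.09, −0.70, −0.15 and −1.17 without number 3. The first of these rests on few reads, 45, 16 and 38 counts in control and 4, 13 and 8 in LysM-Cre libraries. Of the 10 genes Ndrg4 had the steepest rise with RANKL in each of the 4 comparisons. In control cells it rose 16.3-fold at day 3 (log2 4.03, SE 0.38, adjusted p = 1.31e-08) and by 6.15 (SE 0.45, adjusted p = 5.04e-10) log2 units at day 5. The rises in LysM-Cre cells were 5.76 (SE 0.45, adjusted p = 8.68e-10) and 5.42 (SE 0.44, adjusted p = 2.4e-09). All 4 rises start from 4 to 45 counts per library in M-CSF alone, so their sizes are loose. All 4 NDRG genes were tested, and Ndrg4 was the one that passed, in each of the RANKL comparisons. Calls over all tested genes covered 59.1% in control and 59.2% in LysM-Cre cells at day 3, and 49.4% and 52.4% at day 5. Ndrg1 (0.16, SE 0.22, adjusted p = 0.555), Ndrg2 (1.64, SE 1.00, adjusted p = 0.170) and Ndrg3 (−0.26, SE 0.14, adjusted p = 0.12) did not pass in control cells at day 3; these 3 are named outside the rule for family genes, after their values were seen.

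**Figure D2:**
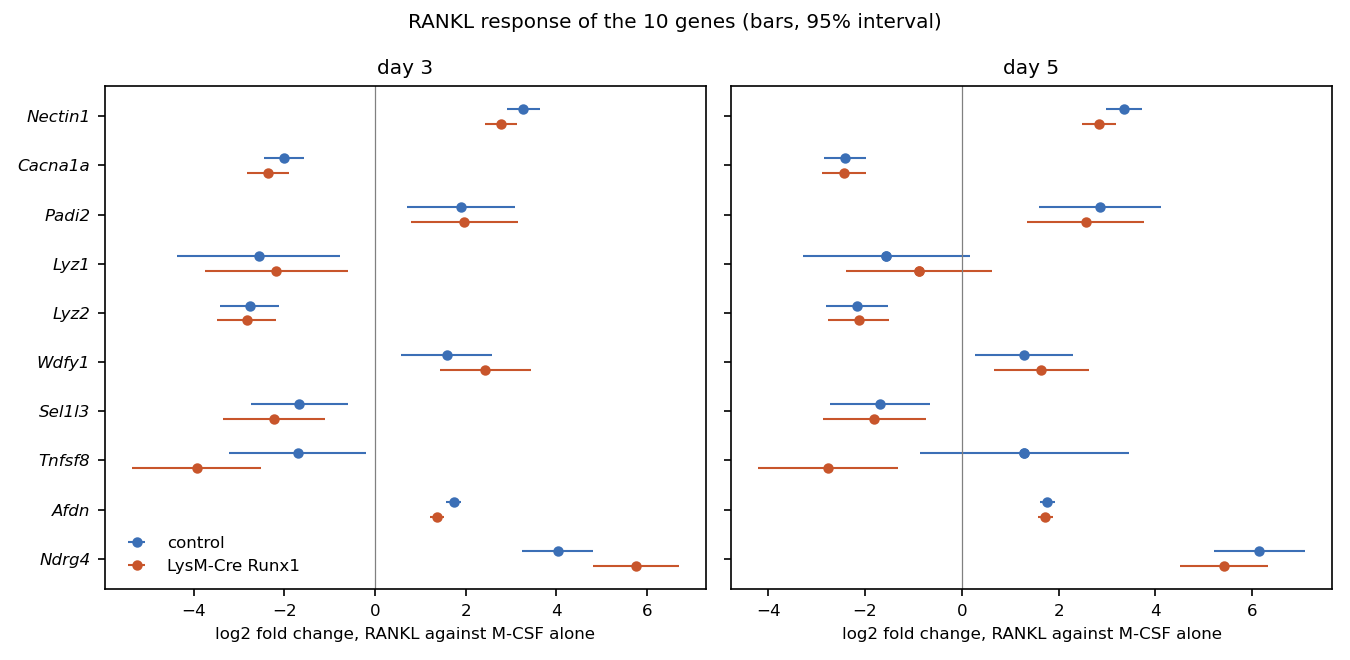
Points are fitted log2 fold changes of RANKL against M-CSF alone (x axis) for each gene (y axis) at day 3 and day 5, blue for control and orange for LysM-Cre cells, with bars for the 95% interval. Nectin1, Afdn, Padi2, Wdfy1 and Ndrg4 lie to the right of 0, Cacna1a, Lyz2 and Sel1l3 to the left, and the intervals of Lyz1 at day 5 and of Tnfsf8 in control cells at day 5 cross 0.

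At day 3 the RANKL comparison passed with a rise for 5 of the 10 genes and with a fall for 5 in either genotype. The falls include that of Tnfsf8, which rests on few reads and, in LysM-Cre cells, on the levels that carried it through the filter, and whose control call was lost under the settings named above. Calls at that point covered 59.1% of all 15035 tested genes in control cells (29.5% higher, 29.7% lower) and 59.2% in LysM-Cre cells (29.1% and 30.1%). At day 5, 5 rose and 3 fell in control cells, where 49.4% of all genes were called (26.4% higher, 23.1% lower). In LysM-Cre cells 5 rose and 4 fell, Tnfsf8 again among the falls, where 52.4% were called (27.5% and 24.9%). The median log2 change of the 10 genes was −0.04 in control and −0.40 in LysM-Cre cells at day 3, and 1.29 and 0.38 at day 5, against −0.03, −0.02, 0.03 and 0.03 over all tested genes. The 10 genes split into rises and falls, so these medians do not describe a shared change. The day 5 control median lies between Wdfy1 and Tnfsf8 (1.29, adjusted p = 0.32), and the Tnfsf8 value rests on single reads. A call was thus common among all genes, and the 10 were chosen on libraries that the RANKL contrasts share. No test of a difference in RANKL response between the genotypes is given, since it would use the contrast that chose the genes.

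The change from day 3 to day 5 passed for fewer of the genes. In M-CSF alone, Cacna1a rose and Tnfsf8 and Ndrg4 fell in control cells, where 23.7% of all genes were called (12.2% higher, 11.5% lower). Cacna1a rose and Afdn fell in LysM-Cre cells, where 14.3% were called (7.17% higher, 7.08% lower). With RANKL, Cacna1a rose in control cells, where 26.8% were called (14.1% higher, 12.7% lower). Cacna1a and Lyz2 rose in LysM-Cre cells, where 33.2% were called (17.6% higher, 15.6% lower). Tnfsf8 changed by −3.00 (SE 0.88, adjusted p = 0.0182), lost without day 3 library 2 (−2.48, adjusted p = 0.0795) or day 5 library 3 (−2.47, adjusted p = 0.0677). The Tnfsf8 call was also lost with the compared groups alone (adjusted p = 0.0746). Ndrg4 changed by −1.69 (SE 0.52, adjusted p = 0.0233), lost without day 3 library 1 (−1.35, adjusted p = 0.132), day 5 library 1 (−1.77, adjusted p = 0.0585) or day 5 library 3 (−1.34, adjusted p = 0.0908). The Ndrg4 call was also lost with no filter (adjusted p = 0.079) and with the compared groups alone (adjusted p = 0.0709). Afdn changed by −0.29 (SE 0.07, adjusted p = 0.0129), lost without day 3 library 1 (−0.26, adjusted p = 0.0564) or day 5 library 1 (−0.24, adjusted p = 0.0695). The Afdn call was also lost with no filter (adjusted p = 0.112) and with the compared groups alone (adjusted p = 0.162). Sel1l3 was higher at day 5 in each of the 6 sets in either medium, by 0.58 to 1.49 log2 units. The Sel1l3 changes did not pass with all 24 libraries, and with the set as a block all 4 passed, at 1.01 and 0.98 in control and 0.70 and 1.19 in LysM-Cre cells (M-CSF alone, then RANKL). Without number 3 they passed at 1.01 (adjusted p = 1.96e-05) in M-CSF alone and 0.97 (adjusted p = 7.01e-05) with RANKL in control cells, and at 0.63 (adjusted p = 0.0136) and 1.27 (adjusted p = 0.000122) in LysM-Cre cells. Padi2 in control cells in M-CSF alone also passed then, at −1.06 (adjusted p = 9.6e-05). In LysM-Cre cells with RANKL, Padi2 (0.48, adjusted p = 0.0364), Lyz1 (1.08, adjusted p = 0.0212) and Wdfy1 (−0.65, adjusted p = 0.00244) passed as well without number 3.

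The genotype label was read across the 10 genes as a description. With edgeR, 0 of the 15035 genes passed between the genotypes at any of the 4 points, so the word "differing" rests on values and not on that test. At an unadjusted p under 0.05 there were 530 (3.53%) for M-CSF alone and 258 (1.72%) for RANKL at day 3, and 948 (6.31%) and 457 (3.04%) at day 5. In that order DESeq2 called 3 (0.02%), 1 (0.00666%), 18 (0.149%) and 5 (0.0361%) genes, and edgeR without number 3 called 34 (0.226%), 6 (0.0399%), 112 (0.745%) and 40 (0.266%). At day 3 in M-CSF alone 6 of the 10 genes had libraries that did not overlap between the genotypes (5.41% of all genes), and with RANKL 4 (5.65%). At day 5 there were 3 in M-CSF alone (16.8%) and 2 with RANKL (10.3%), Nectin1 and Cacna1a, which are in all 4 counts. Without number 3 the counts were 10 (15.8%), 7 (18.4%), 8 (34.9%) and 8 (31.4%). Without control library 3 the last of the 4 counts was 5, and the share of all genes was not counted there. Since these counts and shares come from the contrast that chose the genes, nothing is read from them.

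The sets of LysM-Cre differed in where the 10 genes stood. Over the 4 points, 35 of 40 values of number 1 and 33 of 40 of number 2 lay outside the range of the 3 controls, against 24 of 40 of number 3. For all tested genes those shares were 53.7%, 52.7% and 50%. Nectin1 and Cacna1a were outside in all 3 sets at all 4 points. Padi2, Lyz1, Wdfy1 and Sel1l3 were outside at all 4 points, on the same side, in numbers 1 and 2. How many of all tested genes lay outside at all 4 points was not counted. The genes were chosen on this contrast, so nothing is read from these positions. In number 3, Lyz1 was inside at all 4 points, Padi2 at 2, Wdfy1 at 2 and Sel1l3 at 1, and Sel1l3 was above the controls at 2. The median over all tested genes of the mean absolute log2 difference between genotypes was 0.13, against 0.10 for Afdn, 0.50 for Lyz2 and 2.05 for Lyz1.

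**Figure D3:**
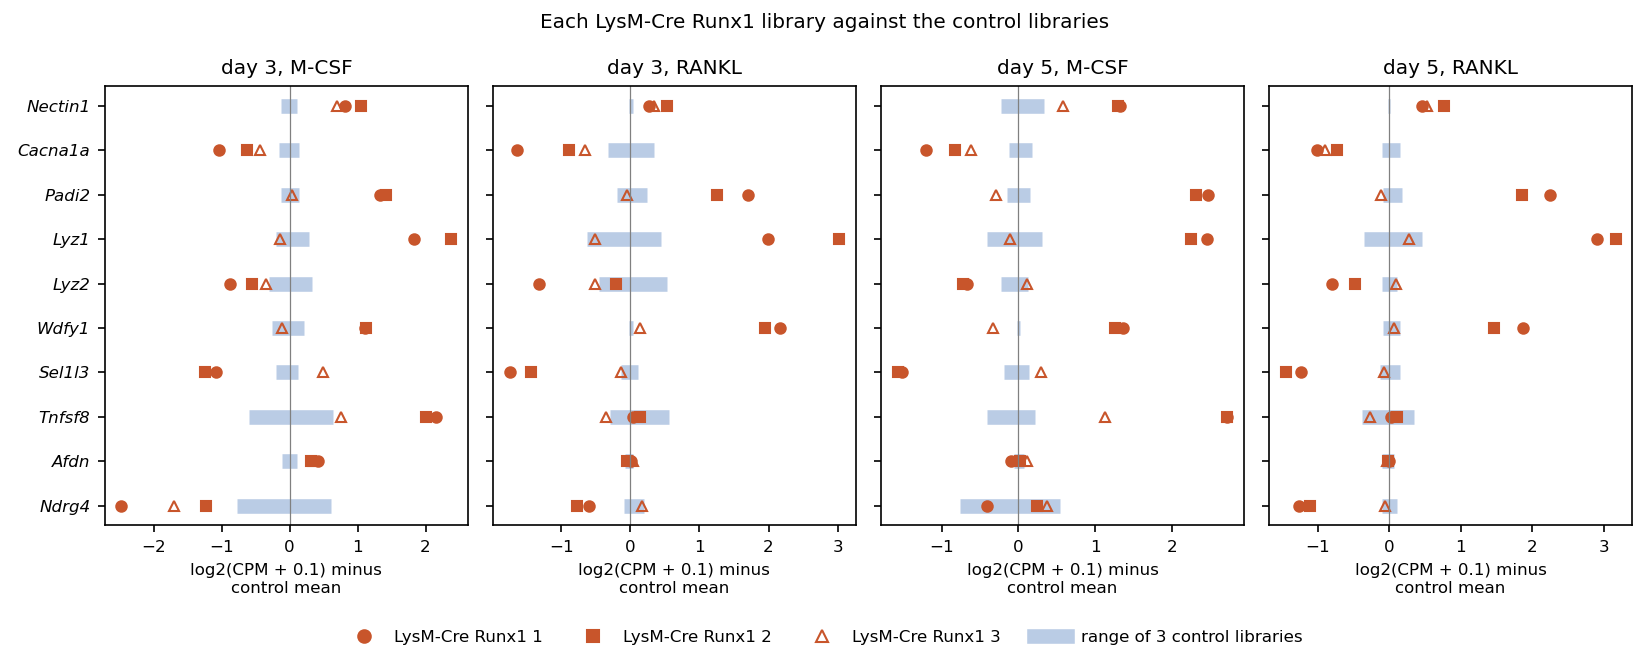
Each panel is a combination of day and medium, with log2(CPM + 0.1) minus the control mean on the x axis and the genes on the y axis. Blue bands span the 3 control libraries, and orange circles, squares and open triangles are LysM-Cre numbers 1, 2 and 3. All orange points of Nectin1 lie right of the band and all of Cacna1a left of it, while the open triangles of Padi2, Lyz1, Wdfy1 and Sel1l3 lie apart from the filled points.

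The 10 genes were compared with each other and with all others by Pearson's r over the 24 libraries of log2(CPM + 1), after the mean of each day and medium was subtracted. The points share libraries, and both the genotype and number 3 shape the values, so r is a description. Padi2, Lyz1 and Wdfy1 ran together (r from 0.93 to 0.94), and Sel1l3 ran against all 3 (r from −0.94 to −0.95). Nectin1 and Cacna1a ran against each other at −0.75, and Lyz1 and Lyz2 at −0.61. Afdn was least like the rest, with r up to 0.45 in size. For Nectin1 the most alike genes were Itpr1 (0.887), the calcium release channel of the endoplasmic reticulum, and Tbl1x (0.832). Cacna1d (0.845), already named for its fall with RANKL, and Ankrd33b (0.837) were the most like Cacna1a.

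For Sel1l3 they were Slc28a2 (0.949), a nucleoside transporter, and Runx3 (0.926), a relative of Runx1. Runx3 at day 5 with RANKL was 6.15, 5.79 and 5.81 CPM in control and 1.28, 1.56 and 6.49 CPM in LysM-Cre libraries. LysM-Cre numbers 1 and 2 were low and number 3 was above the controls. Runx3 at day 3 in M-CSF alone was 0.699, 3.78 and 5.44 CPM in control and 0.402, 0.279 and 6.87 CPM in LysM-Cre libraries. There control number 1 was low as well. Nxpe5 (0.938) and Padi2 were most like Lyz1, Wdfy1 and Lyz1 most like Padi2, and Padi2 and Lyz1 most like Wdfy1. Nqo1 (0.892), a quinone reductase, and Mmp27 (0.876) were most like Lyz2, and Rfx7 (0.861) and Gstp1 (0.858) most like Tnfsf8. Eif5 (0.749) and Fam204a (0.741) were most like Afdn, and Cpe (0.826) and Polm (0.814) most like Ndrg4. By Spearman's rho, 5 of these 20 pairings were again among the 2 most alike, so the order of likeness is loose.

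**Figure D4:**
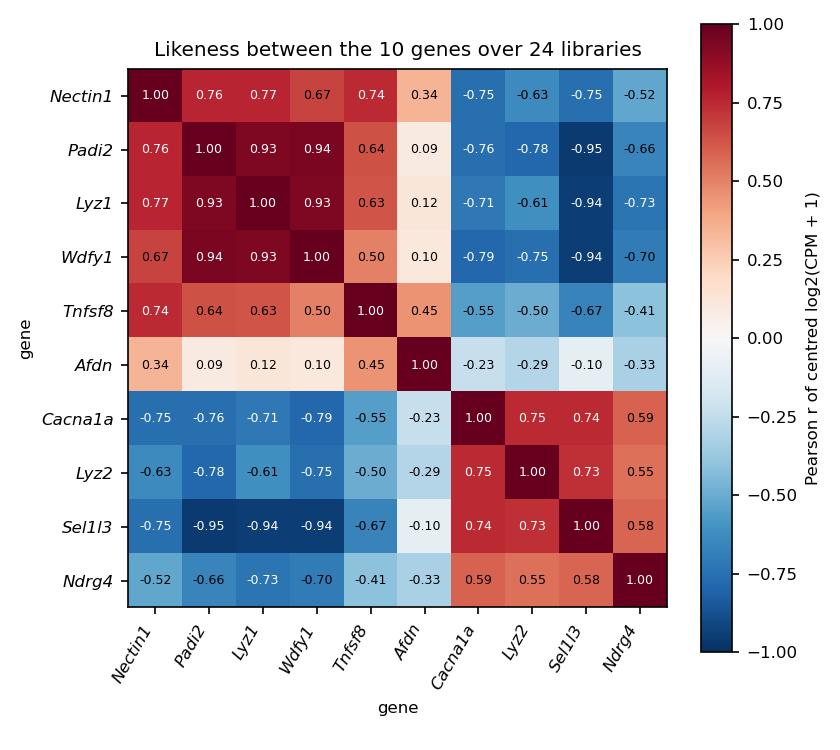
Cells give Pearson's r between the genes on both axes over 24 libraries, of log2(CPM + 1) centred within each day and medium, from −1 (blue) to 1 (red). A red block joins Padi2, Lyz1 and Wdfy1 at 0.93 to 0.94, and Sel1l3 against these 3 is at −0.94 to −0.95.

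Genes whose start lies within 500 kb of one of the 10 were examined for position, 140 pairs of gene and neighbour in all. The median of the neighbours' mean absolute genotype difference ran from 0.05 around Sel1l3 to 0.82 around Afdn, against 0.13 over all genes. Around Lyz2 and Lyz1 it was 0.10, with Cpm the largest at 0.71 apart from the lysozymes themselves. Around Cacna1a the largest was Gm16183 at 1.67, and around Tnfsf8 it was Tnfsf15, another TNF family ligand, at 1.02. Gm16183 had 0 to 5 counts per library with RANKL, so its value rests on few reads. The Tnfsf15 value came mainly from day 5 in M-CSF alone (3.17), against 0.30, −0.21 and 0.42 at the other points. The Afdn value comes from 4 neighbours, of which Gm16046 was the largest at 1.07.

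Markers of other cells were summed in each library. Macrophage markers lay at 7181 to 9002 CPM in M-CSF alone and at 3038 to 4670 CPM with RANKL. Lymphoid markers stayed at 0.052 to 0.932 CPM, with Cd3e at 0 throughout, and mast cell markers at 0.04 to 1.97 CPM, with Fcer1a at 0 throughout. Neutrophil markers (10 genes, none at 0 throughout) lay at 59.0 to 161 CPM in control and 71.3 to 216 CPM in LysM-Cre libraries. At day 5 with RANKL they were at 77.2 to 102.5 CPM in control and at 119.6 to 140.6 CPM in LysM-Cre libraries, without overlap. At the other combinations of day and medium the genotypes overlapped. The part of neutrophil RNA in the genotype differences was not tested. Dendritic markers (7 genes) lay at 1.77 to 21.6 CPM. Stromal markers (8 genes, none at 0 throughout) varied with the number in both genotypes at day 5. In M-CSF alone they stood at 172, 143 and 17.2 CPM in control and 175, 185 and 23.9 CPM in LysM-Cre sets. With RANKL they stood at 91.9, 121 and 43.8 CPM in control and 417, 293 and 36.1 CPM in LysM-Cre sets. Number 3 was the lowest in both genotypes and both media. The part of stromal RNA in the values of the 10 genes was not tested.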

How the data were processed

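RNA from cultured cells was sequenced with the TruSeq RNA kit, per the labels' protocols, from 250 ng of total RNA per library. The authors deposited whole-number read counts per gene for 24 libraries, with identifier, symbol, position and gene length. STAR, DESeq2 and the build GRCm39 appear in the submitters' processing notes. Versions, annotation, strand and the treatment of multiply mapped reads are not stated there. Of 54409 identifiers found in GENCODE M21 for GRCm38, 53499 (98.3%) had the same position in the deposited table, all 10 genes included, so coordinates are given as GRCm38. All 24 count columns were matched to libraries by title, and 0 stayed unmatched.

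The 10 genes, the gene lists and the comparisons were chosen with earlier results of these data known. Counts were tested with edgeR 4.0.16 in R 4.3.3 (filterByExpr, TMM scaling, robust quasi-likelihood fit of 8 groups, all 24 libraries sharing an estimate of the spread), which was tested on simulated data. The filter kept 15035 genes (27.6%), all 10 among them. P-values were adjusted over all tested genes by Benjamini and Hochberg, and a call means an adjusted p under 0.05. Standard errors come from the log2 fold change and its F statistic, intervals are at 95%, and values with ± are mean and SD of 3 libraries. Within-set changes use log2(CPM + 0.1). Named family genes are up to 4 per list, those with the smallest p in control cells at day 3 among those that passed, and the 3 NDRG genes that did not pass are named besides; some genes are not reported here. Likeness used genes averaging a log2 CPM of 1 or more and named the 2 most alike that were not predicted genes. Neighbours were genes starting within 500 kb.

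Whether numbers pair the libraries was checked by the correlation of deviations from group means. Libraries with the same number gave r from −0.07 to 0.37 over 24 pairs, and those with different numbers −0.29 to 0.16. In 1 comparison, RANKL at day 5 in LysM-Cre cells, all 3 pairs exceeded 0.1 (0.21, 0.17 and 0.37). The libraries of LysM-Cre number 3 also shared their Xist and Y-linked pattern. The main fit has no term for the set, so lasting differences between sets enter its error. Blocked values are given where they change a call. Alternatives were DESeq2 1.42.0, other size factors, no filter, the replicate block, a fit of the compared groups alone, each library left out in turn, all libraries of LysM-Cre number 3 left out, and other settings of likeness and neighbour distance. Tnfsf8 held 0 to 41 counts per library, so differences of a few of its reads were not detectable at this depth.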

Additional observations from a re-analysis of the deposited data

Results flagged for a closer look

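The fitted log2 change of Tnfsf8 with RANKL at day 5 had opposite signs in the genotypes, 1.29 in control cells (adjusted p = 0.32, not passed) and −2.76 in LysM-Cre cells, with the same sign in each of the 3 sets of a genotype. The control value rests on single reads, 0 to 1 count per library in M-CSF alone and 1 to 3 with RANKL. The LysM-Cre value rests on 4 to 18 counts without and 2 with RANKL, and the former level is among those that chose the gene and through which it passed the filter on low counts, so its fall is not independent of that choice. The difference between the genotypes was not tested, because the genotype contrast chose the gene.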

How the results depend on the processing

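Of 1040 repeats of a RANKL or day result of a single gene under another setting, 931 kept direction and side of the threshold, 44 lost the call, 31 gained it and 34 turned sign. The 34 lay in 14 of the 40 day 5 to day 3 changes, none of which passed with all libraries or where the sign turned. In M-CSF alone, library totals gave −0.06 for Nectin1, −0.03 for Lyz2, −0.08 for Wdfy1 and −0.05 for Afdn in control cells. With single libraries left out, the control changes ran from −0.15 to 0.17 (Nectin1), −0.06 to 0.26 (Lyz2) and −0.08 to 0.14 (Wdfy1). Those of LysM-Cre cells ran from −0.57 to 0.29 (Padi2), −0.64 to 0.33 (Lyz1), −0.02 to 0.45 (Lyz2), −0.13 to 0.55 (Wdfy1) and −0.15 to 1.53 (Sel1l3). With RANKL they ran from −0.20 to 0.04 (Padi2) and −0.40 to 0.81 (Tnfsf8) in control, and from −0.05 to 0.84 (Padi2), −0.20 to 0.35 (Tnfsf8) and −0.40 to 0.41 (Ndrg4) in LysM-Cre cells. Tnfsf8 in control cells with RANKL, at 0.00 with all libraries, was −0.05 with RLE factors and with DESeq2, −0.01 with the replicate block and −0.02 without number 3, and Ndrg4 in LysM-Cre cells was −0.06 without number 3. Of 400 repeats of a genotype difference, 387 moved by less than the spread between replicates and 13 by more, most of them for Sel1l3 without number 3. That spread includes number 3 and is widened where number 3 stands apart. A move without number 3 can then stay below it, as for Lyz1 at day 5 with RANKL, from 2.55 to 3.07. Tnfsf8 with RANKL moved from −0.28 to 0.54 without control library 1 at day 3, and from −0.19 to 0.21 without control library 2 and to −0.51 without control library 3 at day 5, on counts of 4 or fewer. Where the text names no library for a lost call, the cause was not tested.

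The numbers of the 10 genes called for RANKL (10 at day 3 in either genotype, 8 in control and 9 in LysM-Cre cells at day 5) stayed within 1.5 times under every setting run. With the day 5 to day 3 comparison the count of 3 in control cells in M-CSF alone became 5 without LysM-Cre number 3. With the compared groups alone, Tnfsf8 and Ndrg4 left that count. Padi2 (−1.08, adjusted p = 0.00257) and Sel1l3 (0.99, adjusted p = 0.00444) entered it. The count of 2 in LysM-Cre cells in M-CSF alone became 1 with no filter and 1 with the compared groups alone. The count of 1 in control cells with RANKL became 5 with the compared groups alone and 2 without number 3 or without control day 3 library 1, and the count of 2 in LysM-Cre cells with RANKL became 5 without number 3. The genotype counts of genes that do not overlap, 6, 4, 3 and 2, became 10, 7, 8 and 8 without number 3. Of all tested genes 15.8%, 18.4%, 34.9% and 31.4% did not overlap then. Shares of all genes called are not given for the other settings, so nothing particular to the 10 genes is read from those counts.

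With the replicate block, the day counts became 5 in control cells and 3 in LysM-Cre cells in M-CSF alone, and 3 and 5 with RANKL. The shares of all genes called in that fit are not given, so nothing particular to the 10 genes is read from its counts. Padi2 in control cells in M-CSF alone passed then, at −1.06 (adjusted p = 0.00246). With RANKL, Lyz2 passed in control cells (0.72, adjusted p = 0.024). In LysM-Cre cells with RANKL, Lyz1 (1.17, adjusted p = 0.00341) and Wdfy1 (−0.56, adjusted p = 0.00268) passed. The RANKL counts became 10 at day 3 in either genotype, and 9 in control and 10 in LysM-Cre cells at day 5. At day 5 Lyz1 in control cells passed in that fit, at −1.55 (adjusted p = 0.000295).

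Leaving out each library in turn gave 8 to 10 calls for RANKL at day 3 in control and 9 to 10 in LysM-Cre cells, and 7 to 8 and 8 to 9 at day 5. For the day comparison it gave 1 to 3 calls in either genotype in M-CSF alone, and 0 to 2 in control and 0 to 3 in LysM-Cre cells with RANKL. The genotype counts ran from 6 to 10, 4 to 7, 3 to 8 and 2 to 8. Shares over all tested genes are not given beside these ranges, so nothing particular to the 10 genes is read from them. With the compared groups alone, the day 5 RANKL calls of Padi2, Wdfy1 and Sel1l3 in LysM-Cre cells were lost (adjusted p = 0.097, 0.108 and 0.107), and at day 3 those of Lyz1 in LysM-Cre cells (adjusted p = 0.0572) and Tnfsf8 in control cells (adjusted p = 0.0983). With no filter those of Lyz1 at day 3 (adjusted p = 0.0547 in control and 0.0608 in LysM-Cre cells) and of Tnfsf8 in control cells at day 3 (−1.69, adjusted p = 0.122) were lost, as was that of Wdfy1 in control cells at day 5 (adjusted p = 0.0856).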
